A study of Homo sapiens with 9 samples.

Results

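The genes described here are 10 inflammatory genes that NF-κB is known to drive, namely the CXC chemokine genes CXCL8, CXCL1, CXCL2 and CXCL3, the CC chemokine genes CCL2 and CCL20, the cytokine genes IL6 and IL1B, and the feedback inhibitor genes NFKBIA and TNFAIP3. They are 10 of 20033 protein-coding genes with an Ensembl canonical TSS in GENCODE v44, and they were chosen by name, as genes taken to be active in this line with results of these peak lists already known. The values below therefore describe the genes and are given with no test. A peak lay within 1 kb of the TSS in all 9 libraries at 8 of the 10, beside 60.0% of all protein-coding genes. CCL2 and CCL20 had no promoter peak in any library. A peak marks open chromatin and does not show that a gene is active, so whether the genes are active was not tested.

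MDA-MB-231 cells, a human TNBC line of basal, mesenchymal type, were profiled by ATAC-seq, which uses Tn5 to cut and tag DNA where chromatin is open. Of the 9 libraries, 2 each came from cells carrying shCtrl (a control hairpin), shEZH2 and shE2F1, and 1 each from cells with shSUZ12, cells given the solvent DMSO and cells given GSK126, an inhibitor of the EZH2 methyltransferase. The hairpins were delivered by pLKO.1 lentivirus, and puromycin at 2 μg/ml was added 24 h later for 72 h of selection. GSK126 was given for 72 h, and the DMSO and GSK126 cells are not described as transduced. Each knockdown rests on 1 hairpin in 1 cell line, and nothing in the labels says that replicates came from separate cultures. EZH2 and SUZ12 are subunits of PRC2, which methylates histone H3 at lysine 27, and E2F1 is a cell cycle transcription factor. Peak lists hold no measure of EZH2, E2F1 or SUZ12 levels, so the depletion itself was not checked here.

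NF-κB dimers are held in the cytoplasm by IκB proteins until cytokine or Toll-like receptor signals activate the IκB kinase, which marks IκB for destruction. The freed dimers enter the nucleus and bind κB sites beside chemokine and cytokine genes. NFKBIA, which encodes IκBα, and TNFAIP3, which encodes the ubiquitin-editing protein A20, are themselves targets and shut the signal off. The CXC chemokines CXCL1, CXCL2, CXCL3 and CXCL8 attract neutrophils through CXCR2, CCL2 attracts monocytes through CCR2 and CCL20 attracts CCR6-bearing lymphocytes and dendritic cells. Basal breast cancer lines are known for secreting IL-6 and CXCL8.

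The DNA just before the TSS shows what the promoters share. The 250 bases upstream of the TSS are printed for the CXC chemokines, whose promoters resemble one another, for CCL20, which had no promoter peak, and for NFKBIA, the classic feedback target. They are RefSeq sequences of GRCh38.p14, written 5′ to 3′ on the gene's own strand and ending at the base before the TSS. Capitals mark matches on either strand to GGNNNTTCC, a short form of the κB site, and to TGANTCA, the AP-1 site.
CXCL8 (chr4:73740319-73740568, plus strand): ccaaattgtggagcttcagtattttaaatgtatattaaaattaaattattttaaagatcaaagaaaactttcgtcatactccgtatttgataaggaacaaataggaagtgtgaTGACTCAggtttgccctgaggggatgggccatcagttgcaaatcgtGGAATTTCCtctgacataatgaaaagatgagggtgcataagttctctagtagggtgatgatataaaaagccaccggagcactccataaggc
CXCL1 (chr4:73869143-73869392, plus strand): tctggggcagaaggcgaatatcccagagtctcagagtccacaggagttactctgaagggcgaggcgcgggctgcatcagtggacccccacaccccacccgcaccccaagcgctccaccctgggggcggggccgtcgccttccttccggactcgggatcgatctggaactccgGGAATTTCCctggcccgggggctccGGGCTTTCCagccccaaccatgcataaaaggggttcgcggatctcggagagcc
CXCL2 (chr4:74099196-74099445, minus strand): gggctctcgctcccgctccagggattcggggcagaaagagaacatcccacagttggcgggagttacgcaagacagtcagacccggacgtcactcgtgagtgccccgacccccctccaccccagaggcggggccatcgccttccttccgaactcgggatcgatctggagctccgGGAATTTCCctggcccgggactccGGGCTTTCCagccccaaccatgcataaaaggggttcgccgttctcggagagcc
CXCL3 (chr4:74038690-74038939, minus strand): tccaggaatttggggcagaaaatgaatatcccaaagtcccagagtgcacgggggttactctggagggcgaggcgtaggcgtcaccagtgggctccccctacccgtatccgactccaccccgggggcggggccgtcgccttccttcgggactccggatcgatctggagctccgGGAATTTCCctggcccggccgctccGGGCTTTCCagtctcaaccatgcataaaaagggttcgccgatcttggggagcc
CCL20 (chr2:227813592-227813841, plus strand): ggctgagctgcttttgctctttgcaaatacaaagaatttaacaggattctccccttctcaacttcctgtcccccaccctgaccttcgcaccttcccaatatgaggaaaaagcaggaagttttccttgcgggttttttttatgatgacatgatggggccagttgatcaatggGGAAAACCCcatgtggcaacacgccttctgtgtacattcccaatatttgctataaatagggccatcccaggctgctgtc
NFKBIA (chr14:35404750-35404999, minus strand): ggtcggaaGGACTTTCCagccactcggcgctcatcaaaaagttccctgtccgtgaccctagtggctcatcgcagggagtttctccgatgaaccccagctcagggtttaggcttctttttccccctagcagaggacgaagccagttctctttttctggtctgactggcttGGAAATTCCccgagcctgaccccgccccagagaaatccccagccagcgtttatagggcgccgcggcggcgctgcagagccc

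RefSeq promoters were at hand for 9 of the 10 genes, the exception being CCL2. A κB-type match lay in 8 of these 9 windows, in all but that of IL1B, and 17.1% of 35116 RefSeq upstream windows of the same length hold one. CXCL1, CXCL2 and CXCL3 each carried 2 matches, one starting at −53 bases from the TSS and the other at −77 or −78. CXCL8 had 1 κB-type match, starting at −91, and also an AP-1 match starting at −137, the only AP-1 match among the 9 windows. AP-1 matches are found in 6.57% of all upstream windows. None of the 9 windows held TTTNNCGC, a short form of the E2F site found in 5.92% of upstream windows. A match is a run of letters and not a bound site, and the absence of one says only that these letters are not in the window.

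The upstream windows of CXCL1, CXCL2 and CXCL3 are alike, and the effect of this on read mapping was not tested. Global alignment gave 81.4% identity between CXCL1 and CXCL3, 73.4% between CXCL2 and CXCL3 and 70.1% between CXCL1 and CXCL2, against 43.9% to 47.9% between CXCL8 and each of the others. Over 1 kb on either side of the TSS, the longest stretch shared without a mismatch was 178 bases between CXCL2 and CXCL3, 55 bases between CXCL1 and CXCL3 and 51 bases between CXCL1 and CXCL2. Of the 50-base windows around the CXCL2 TSS, 6.61% recurred exactly around the CXCL3 TSS. The alignment allowed up to 4 placements of a read, so reads from the shared stretch can count at either gene and the values of CXCL2 and CXCL3 are uncertain to that extent.

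Each library's list gives a fold enrichment for every peak, taken here as the tags at the summit plus 1 over the local background plus 1, since the caller is not named. Because libraries differ in depth, a promoter is given below by the percentile of its strongest peak among all peaks of its own list, ranked by fold enrichment, from 0 for the weakest to 100 for the strongest. The lists held 58626 to 85812 peaks, the shortest being that of shEZH2 replicate 2. The most frequent background recovered from the peaks, which stands for depth, was 1.41 tags in that library and up to 2.18 tags in shE2F1 replicate 2, and peaks over it were called from 8 or 9 tags. Where the local background was higher the limit was higher too, so a missing peak means only that no peak was called, and not closed chromatin. Promoter peaks were found in all 9 libraries at 8 of 8 mesenchymal marker genes such as VIM and ZEB1 and at 5 of 10 luminal marker genes. Of the other luminal genes, ESR1 and CDH1 had one in 8 libraries, PGR and FOXA1 in 7 and only GATA3 in none. Presence thus hardly separated mesenchymal from luminal markers. Of 8 leukocyte marker genes, 1, CD14, had a peak in all 9 libraries and 6, PTPRC among them, in none. Of 4 endothelial marker genes, 1, KDR, had one in all 9 and 2 in none.

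Across all protein-coding genes, 60.0% had a promoter peak in all 9 libraries, beside the 8 of 10 genes described here. The 8 promoters differed widely in rank. By their medians, CXCL8, CXCL3, CXCL2 and TNFAIP3 lay well above the middle of the lists and CXCL1, IL1B, NFKBIA and IL6 around or below it. In order of the median over the 9 libraries they ran CXCL8 (84.2), CXCL3 (80.3), CXCL2 (74.6), TNFAIP3 (72.6), IL1B (49.2), CXCL1 (48.2), NFKBIA (44.2) and IL6 (36.7). The ranges over libraries overlapped between all neighbours in this order, so this order describes the medians and no step in it exceeds the spread between libraries.

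**Figure D1:**
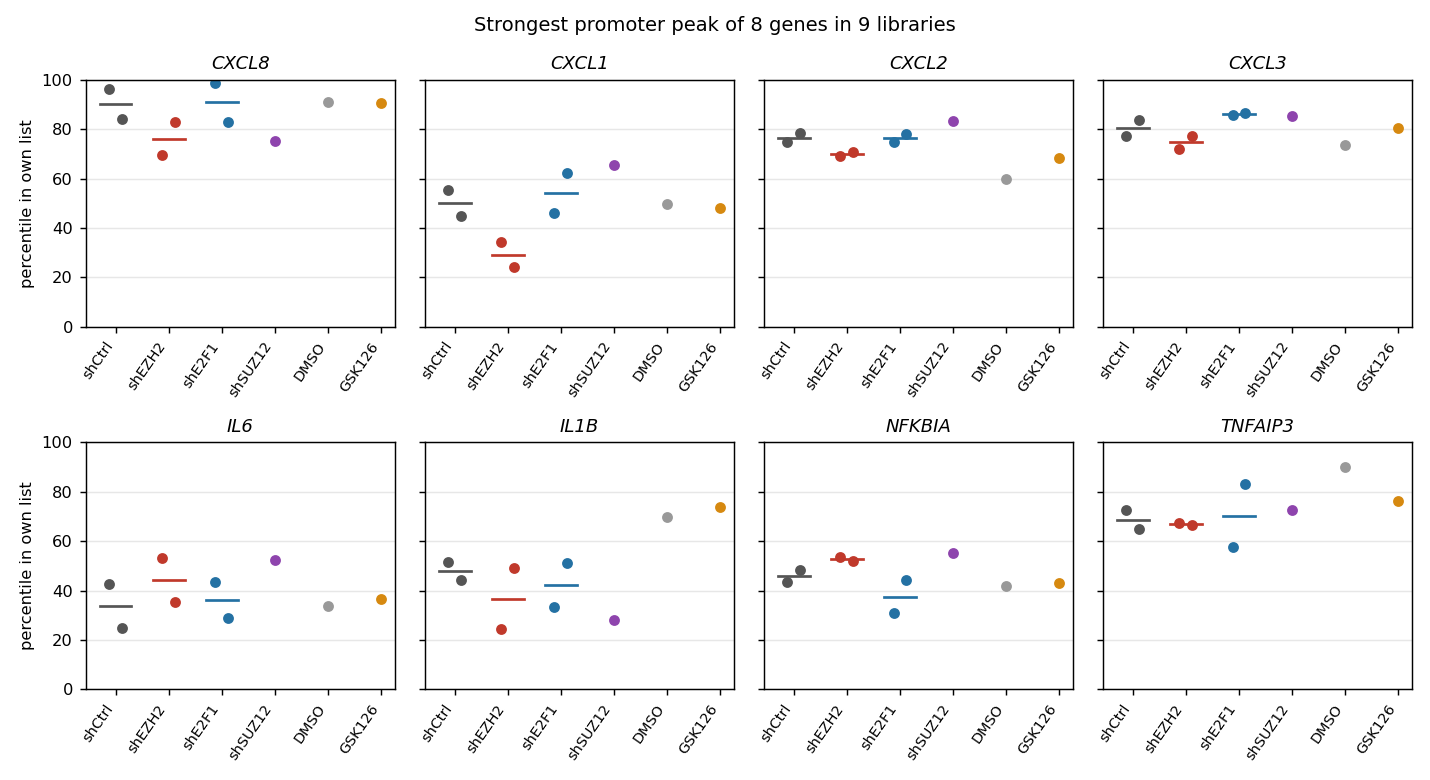
Percentile of the strongest promoter peak within its own list (y axis, 0 to 100) by group (x axis) for the 8 genes with a promoter peak, with 1 point per library and a line at the mean of each group of 2. CXCL8 lies between 69.4 and 98.8 and CXCL1 between 24.3 and 65.5, and the 2 shEZH2 points of CXCL8, CXCL1 and CXCL2 lie below both shCtrl points.

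CXCL8 encodes interleukin-8. Its promoter peak was at percentiles 96.4 and 84.2 in the shCtrl libraries, 69.4 and 82.8 with shEZH2 and 98.8 and 82.8 with shE2F1. It was at 75.3 with shSUZ12, 91.0 with DMSO and 90.6 with GSK126. Both shEZH2 values lay below both shCtrl values, with means of 76.1 ± 9.51 (SD, n = 2) and 90.3 ± 8.68 (SD, n = 2), whereas the nearest values of the groups were only 82.8 and 84.2. The shE2F1 values fell around those of shCtrl. The summits lay between −65 and 57 bases from the TSS in all libraries, just downstream of the κB-type and AP-1 matches printed above, and the peaks were 407 to 987 bp wide.

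CXCL1 had the lowest median percentile of the 4 CXC genes described here. It was at percentiles 55.2 and 44.9 with shCtrl, 34.1 and 24.3 with shEZH2 and 46.0 and 62.4 with shE2F1. It was at 65.5 with shSUZ12, the highest of the 9 libraries, 49.5 with DMSO and 48.2 with GSK126. The difference between the shEZH2 and shCtrl means was −20.8 points, with SDs of 6.95 and 7.30 (n = 2 each), and the groups did not overlap. The fold enrichment behind these ranks was 7.49 and 6.77 with shCtrl and 5.60 and 5.36 with shEZH2. At the summits these were 36 and 33 tags with shCtrl and 27 and 23 tags with shEZH2.

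CXCL2 and CXCL3, which lie on the minus strand beyond CXCL1, had promoter peaks above the middle of the list in every library. CXCL2 was at percentiles 74.6 and 78.5 with shCtrl, 69.1 and 70.6 with shEZH2, 74.8 and 78.0 with shE2F1, 83.3 with shSUZ12, 59.6 with DMSO and 68.2 with GSK126. Its shEZH2 values lay below the shCtrl values without overlap, with a difference of −6.69 points between the means. CXCL3 was at 77.2 and 83.7 with shCtrl, 71.8 and 77.4 with shEZH2, 85.7 and 86.5 with shE2F1, 85.2 with shSUZ12, 73.4 with DMSO and 80.3 with GSK126. Both shE2F1 values of CXCL3 lay above both shCtrl values, with means of 86.1 ± 0.561 (SD, n = 2) and 80.5 ± 4.56 (SD, n = 2), and the shEZH2 values overlapped with shCtrl.

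By their medians, the cytokine promoters lay below the middle of the lists. IL6, the main acute phase cytokine, was at percentiles 42.7 and 25.0 with shCtrl, 53.2 and 35.2 with shEZH2, 43.3 and 28.8 with shE2F1, 52.2 with shSUZ12, 33.7 with DMSO and 36.7 with GSK126. IL1B, the inflammasome-processed cytokine interleukin-1β, was at 51.6 and 44.3 with shCtrl, 24.4 and 49.2 with shEZH2, 33.2 and 51.3 with shE2F1, 28.0 with shSUZ12, 69.8 with DMSO and 73.8 with GSK126. For both genes the knockdown groups of 2 overlapped with shCtrl. The DMSO and GSK126 values of IL1B were the highest of the 9 libraries and lay within 4.03 points of each other.

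The feedback inhibitors differed in rank. NFKBIA was at percentiles 43.6 and 48.3 with shCtrl, 53.5 and 51.8 with shEZH2, 30.8 and 44.2 with shE2F1, 55.3 with shSUZ12, 41.9 with DMSO and 42.9 with GSK126. Its shEZH2 mean of 52.7 ± 1.26 (SD, n = 2) lay above the shCtrl mean of 45.9 ± 3.31 (SD, n = 2) without overlap. TNFAIP3 was at 72.6 and 64.9 with shCtrl, 67.4 and 66.5 with shEZH2, 57.5 and 83.3 with shE2F1, 72.8 with shSUZ12, 89.9 with DMSO and 76.1 with GSK126. The shEZH2 values of TNFAIP3 fell between those of shCtrl, and its shE2F1 values lay on either side of them.

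The rank of IL6 and NFKBIA depended on which column of the lists was ranked. The recovered local backgrounds were 10.2 to 21.0 tags at IL6 and 9.32 to 17.9 tags at NFKBIA. They were 2.46 to 5.30 tags at IL1B and 6.18 to 12.7 tags at CXCL2. Ranked by −log10 p, IL6 lay at percentiles 72.1 to 83.1 and NFKBIA at 74.4 to 84.5, and the shEZH2 and shCtrl groups of NFKBIA then overlapped. At NFKBIA the strongest summit also moved between a position at −9 to −26 bases from the TSS, in shCtrl replicate 1 and shEZH2 replicate 1, and one 789 to 798 bases inside the gene in the other 7 libraries.

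Set against all promoters, these differences were common ones. With shEZH2, 3 of the 8 promoters (CXCL8, CXCL1 and CXCL2) were lower in both libraries than in both shCtrl libraries, as were 29.7% of 12234 promoters tested, and 1 of 8 (NFKBIA) was higher, as were 10.6%. The median difference was −6.28 points over the 8 promoters and −2.58 over all promoters. With shE2F1, 1 of the 8 promoters (CXCL3) was higher than in both shCtrl libraries, as were 19.2% of 12516 promoters, and 0 of 8 were lower, as were 17.0%. The median difference was 1.08 points over the 8 and −0.0715 over all. Both comparisons use the same shCtrl libraries. No test was run on them, and an exact test of 2 libraries against 2 could not give a p below 0.33.

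List length changed the picture with shEZH2. When every list was reduced to its 58626 peaks with the highest −log10 p, 0 of the 8 promoters remained lower with shEZH2 in both libraries, as were 14.4% of all promoters, and 2 (IL6 and NFKBIA) were higher, as were 23.9%. The median difference was then 0.0938 points over the 8 promoters and 1.30 over all. The means of CXCL8, CXCL1 and CXCL2 still differed from shCtrl by −14.0, −9.96 and −1.70 points, but the groups overlapped. IL6 was at 42.4 and 35.2 with shEZH2 against 23.2 and 9.40 with shCtrl. Its summits lay at 172 and −212 bases from the TSS with shEZH2 and at −648 and −638 with shCtrl, so the values come from different points of the promoter. With shE2F1, CXCL3 remained higher, 1 of 8 beside 22.3% of all promoters, and NFKBIA became lower, 1 of 8 beside 15.4%.

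**Figure D2:**
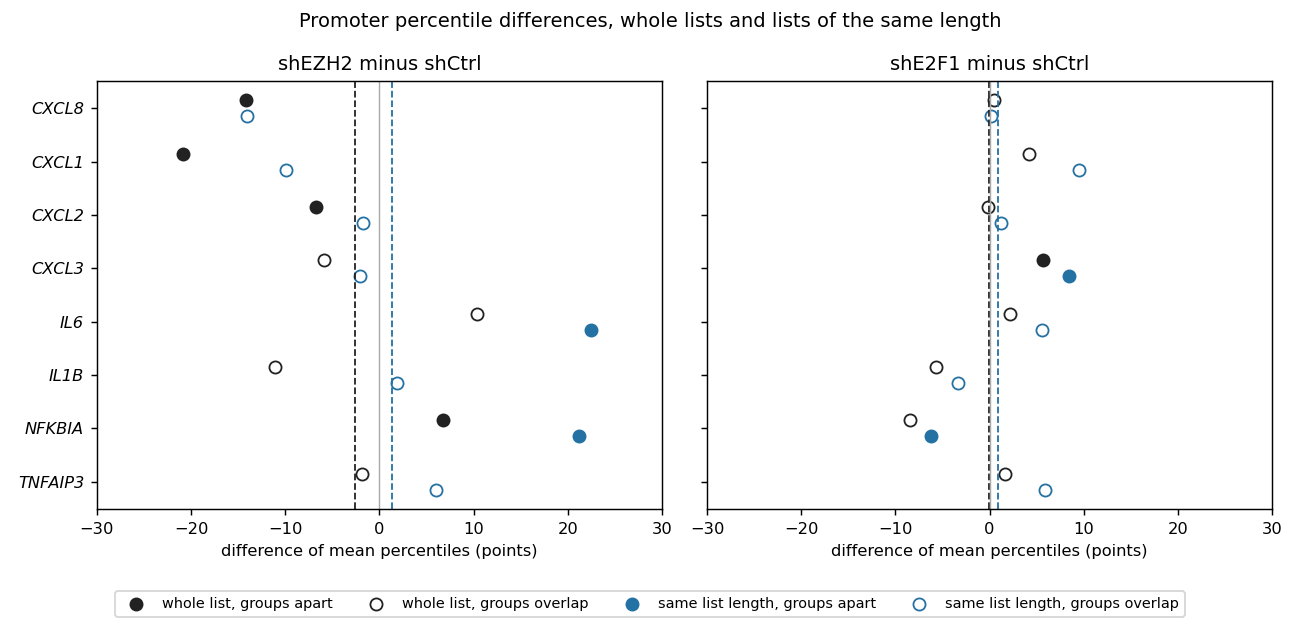
Difference between the mean promoter percentile of each knockdown and that of shCtrl (x axis, points) for the 8 genes (y axis), in whole lists (black) and in lists of the same length (blue), with filled circles where the libraries of the groups do not overlap and dashed lines at the median of all promoters. With shEZH2, CXCL1 moves from −20.8 to −9.96 points and NFKBIA from 6.72 to 21.2 points between the whole lists and those of the same length.

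The libraries without a replicate were read by a difference of over 10 points. With shSUZ12, CXCL1 was 15.4 points and IL6 18.3 points above the shCtrl mean, 2 of 8 beside 17.6% of all promoters. CXCL8 differed from it by −15.0 points and IL1B by −20.0 points, 2 of 8 beside 5.45% of all promoters. Ranked by −log10 p, CXCL8 was 1.07 points above the shCtrl mean, and neither CXCL8 nor IL6 was past 10 points. With GSK126, 0 of the 8 promoters were over 10 points above DMSO, beside 6.87% of all promoters, and 1, TNFAIP3 at −13.8 points, was below it, beside 15.4%. CXCL2 and CXCL3 were 8.67 and 6.96 points above DMSO, and the other 5 promoters lay within 4.03 points of it. In lists of the same length CXCL2 and CXCL3 were past 10 points, at 14.2 and 10.8 points above DMSO. These differences are between single libraries and have no replicate error.

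Beyond the promoters, overlapping peaks of any of the 9 libraries were joined into one region. Within 100 kb of the 10 TSSs lay 135 regions, of which 118 were outside all promoters. Of these 118, 47 (39.8%) had a peak in all 9 libraries, beside 28.4% of all 103892 regions outside promoters, and 22 had a peak in only 1 library. The number of these regions with a peak ran from 62 in shEZH2 replicate 2 to 93 in shE2F1 replicate 2, the libraries with the lowest and the highest background. An AP-1 match lay within the 200 bases around the strongest summit of 51 of the 118 regions, which is 43.2%, against 34.8% of all regions outside promoters and 45.6% of those with a peak in all 9 libraries. A κB-type match lay in 20 of them, 16.9% against 12.5% and 13.8%, and an E2F match in 1.

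**Figure D3:**
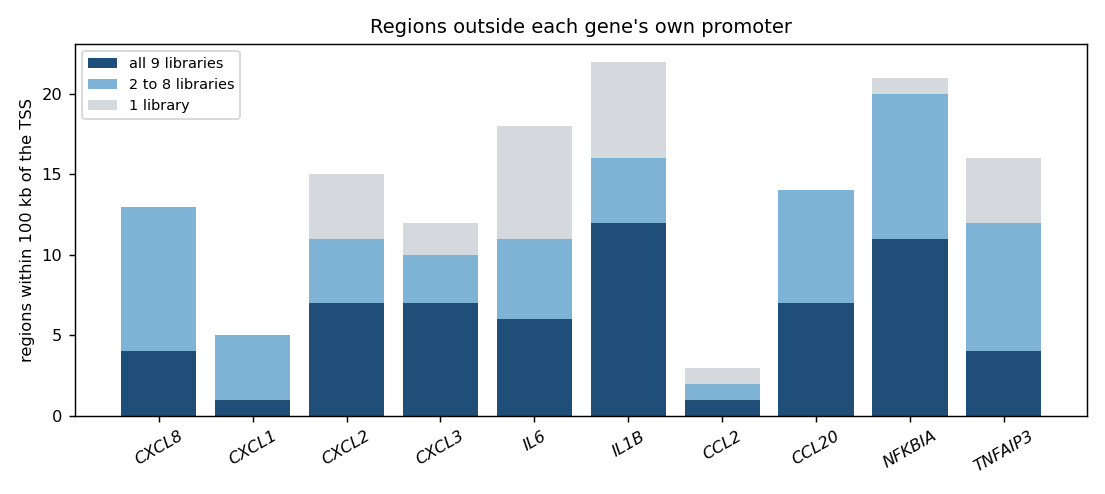
Number of regions within 100 kb of each TSS outside the gene's own promoter (y axis), split by the number of libraries with a peak. IL1B has 22 regions, 12 of them in all 9 libraries, and CCL2 has 3, of which 1 is in all 9; windows of neighbouring genes overlap, so some regions are drawn for 2 genes.

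The surroundings differed between genes. IL1B had 23 regions within 100 kb, promoter included, NFKBIA 22 and IL6 19, against a median of 14 over all protein-coding genes. Among genes these were at percentiles 82.1, 79.3 and 69.7. TNFAIP3 had 17 regions, CXCL2 16, CXCL8 and CCL20 14 each, CXCL3 13 and CXCL1 7, the last at percentile 21.5. CCL2 had 3, fewer than most genes at percentile 8.68. CCL2 thus had neither a promoter peak nor a gene body peak, and its 1 region with a peak in all 9 libraries lay at −55.2 kb from the TSS (chr17:34199934-34200314). That region was at percentiles 77.1 and 86.1 with shCtrl, 47.2 and 51.2 with shEZH2 and 68.6 and 95.7 with shE2F1, so that shEZH2 lay below shCtrl without overlap. For this and the regions below, the share of all regions with groups apart was not counted. Whether the groups stay apart in lists of the same length was not checked for these regions either. Regions in the gene body outside the promoter were found for CXCL2, IL6, IL1B and TNFAIP3, 1 each. That of CXCL2 had a peak only with DMSO, at percentile 3.14, and that of IL1B only in shEZH2 replicate 2, at 1.99. The IL6 one had a peak in 8 libraries, at 1.98 to 20.0, and the TNFAIP3 one in 3, at 11.5 to 47.2.

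Gained regions, with a peak in both libraries of a knockdown and in neither shCtrl library, and lost regions, the reverse, were few. With shEZH2, 1 of the 118 regions (0.847%) was gained, beside 0.810% of all regions outside promoters, and 9 (7.63%) were lost, beside 6.39%. With shE2F1, 4 (3.39%) were gained, beside 2.87%, and 2 (1.69%) were lost, beside 3.61%. With shSUZ12, 7 (5.93%) had a peak that neither shCtrl library had, beside 5.80%, and 10 (8.47%) lacked a peak of both shCtrl libraries, beside 7.55%. With GSK126, 7 (5.93%) were gained over DMSO, beside 6.19%, and 20 (16.9%) were lost, beside 12.2%. In lists of the same length, 4 of the 9 regions lost with shEZH2, 1 each near CXCL8, CCL20, NFKBIA and TNFAIP3, kept their call, as did the 1 gained with shEZH2 and 1 of the 4 gained with shE2F1. Neither of the 2 regions lost with shE2F1 did. Other regions took on a call in those lists, which gave 3 gained and 5 lost with shEZH2 and 3 gained and 0 lost with shE2F1. The shares over all regions were not counted in those lists, so these counts cannot be set against them.

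CCL20 lies on chromosome 2 (TSS at chr2:227813842, plus strand) with no peak at its promoter or in its gene body in any library. Within 100 kb were 14 regions, 7 of them with a peak in all 9 libraries. One of these lay 4.72 kb after the TSS, just past the end of the gene (chr2:227817947-227819173), at percentiles from 77.4 in shE2F1 replicate 2 to 88.6 in shCtrl replicate 1. It held 126 tags at the summit in shCtrl replicate 2 and 57 in shE2F1 replicate 1. Both shEZH2 and both shE2F1 values there were below both shCtrl values, at 83.7, 84.9, 81.5 and 77.4 against 88.6 and 87.3. The other regions in all 9 libraries were the promoter of SLC19A3 at −95.8 kb from the TSS, intergenic regions at −47.1 and 49.4 kb, the promoter of DAW1 at 57.5 kb, and regions at 62.6 and 70.8 kb in introns of DAW1.

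An intergenic region at −17.2 kb from the CCL20 TSS (chr2:227796272-227797012) was gained with shE2F1. It had no peak in either shCtrl library or either shEZH2 library. Its percentiles were 98.2 and 90.7 with shE2F1, 22.0 with shSUZ12, 60.4 with DMSO and 59.9 with GSK126. At the summits, 36 and 45 tags were recovered with shE2F1, 14 with shSUZ12, 23 with DMSO and 21 with GSK126, where a call at the most frequent background took 8 tags in shCtrl replicate 1 and 9 in replicate 2. Peaks were thus seen in DMSO cells, which are not described as carrying a hairpin, and not in the shCtrl cells, so presence was not particular to shE2F1. The 5 summits fell within 227796600 to 227796619, and the call with shE2F1 held in lists of the same length and at a −log10 q of at least 5.

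The 200 bases around the strongest summits are shown for 2 regions of changed presence, on the plus strand of hg38 with κB-type and AP-1 matches in capitals: the one before CCL20 and the one between CXCL8 and CXCL1 described further on.
CCL20 at −17.2 kb (chr2:227796502-227796701): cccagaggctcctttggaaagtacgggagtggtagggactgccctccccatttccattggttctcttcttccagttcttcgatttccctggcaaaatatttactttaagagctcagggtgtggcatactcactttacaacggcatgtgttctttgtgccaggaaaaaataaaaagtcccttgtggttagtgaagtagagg
CXCL8 at 76.4 kb (chr4:73816849-73817048): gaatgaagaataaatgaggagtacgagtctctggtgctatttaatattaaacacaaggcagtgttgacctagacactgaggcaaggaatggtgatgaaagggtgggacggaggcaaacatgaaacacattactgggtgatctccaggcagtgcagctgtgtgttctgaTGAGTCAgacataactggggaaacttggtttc
The window before CCL20 held none of the 3 motifs, and the window between CXCL8 and CXCL1 held 1 AP-1 match.

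A region 25.9 kb after the CCL20 TSS was lost with shEZH2. It was at percentiles 75.9 and 70.4 with shCtrl, 54.1 and 82.6 with shE2F1, 56.4 with shSUZ12, 54.3 with DMSO and 40.0 with GSK126, and it had no peak in either shEZH2 library. The summits held 27 and 29 tags with shCtrl and 16 tags in the weakest libraries, shE2F1 replicate 1 and GSK126, so a peak was seen in 7 of 7 libraries without shEZH2. The call held in lists of the same length. A second lost region, 74.6 kb after the TSS in an intron of DAW1 (chr2:227888271-227888641), was weaker, at 44.2 and 27.3 with shCtrl, 54.0 in shE2F1 replicate 2, 31.4 with shSUZ12 and 41.9 with DMSO, with no peak in the other 4 libraries.

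The remaining regions near CCL20 were of other kinds. The region at 62.6 kb, in an intron of DAW1, was at 47.0 and 40.1 with shCtrl, 79.3 and 90.0 with shEZH2, 49.1 and 64.3 with shE2F1, 37.3 with shSUZ12, 33.2 with DMSO and 49.9 with GSK126. Both knockdowns lay above shCtrl without overlap there, and shEZH2 gave the 2 highest values. How many of all regions do the same was not counted. A region 40.2 kb after the TSS had a peak only with shE2F1, at 34.4 and 17.2, with 13 tags at each summit. The region at −47.1 kb was at 71.0 and 83.3 with shCtrl, 41.6 and 73.1 with shEZH2 and 41.4 and 46.4 with shE2F1. That at 49.4 kb was at 80.5 and 91.8 with shCtrl, 76.8 and 77.9 with shE2F1 and up to 94.7 with shSUZ12. Those at 20.8, 68.3 and 76.9 kb had peaks in 3, 5 and 2 libraries, at percentiles of at most 43.0.

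The other genes with a promoter in the window gave context. The SLC19A3 promoter was at 78.5 and 70.4 with shCtrl, 41.6 and 61.1 with shEZH2 and from 39.6 to 76.6 in the other libraries. The DAW1 promoter ranged from 31.9 in shE2F1 replicate 1 to 76.5 with GSK126, with all groups of 2 overlapping. The intron region at 70.8 kb was at 61.2 and 71.5 with shCtrl and 41.4 and 48.7 with shE2F1.

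**Figure D4:**
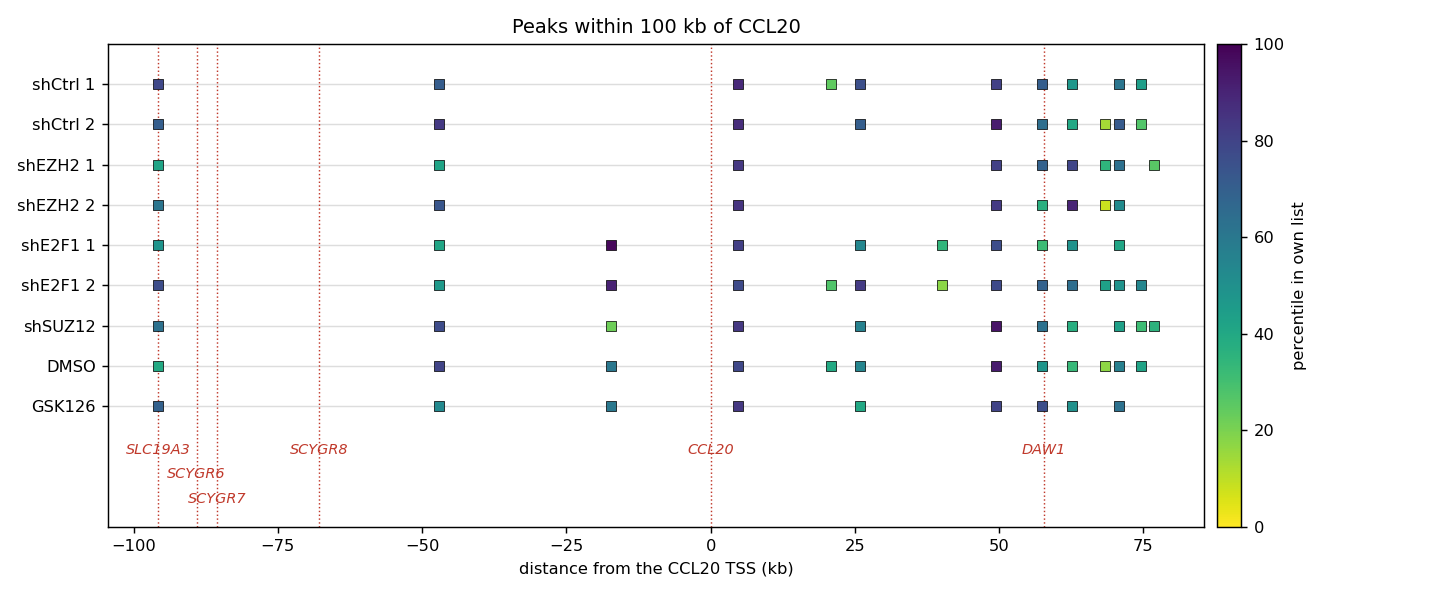
Regions with a peak within 100 kb of the CCL20 TSS (x axis, kb from the TSS) in each library (y axis), with the colour giving the percentile and dotted lines the TSSs of protein-coding genes. No square stands at 0 kb in any library, and the square at −17.2 kb is present in the shE2F1, shSUZ12, DMSO and GSK126 libraries, at percentiles from 22.0 to 98.2.

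The CXCL8 to CXCL1 locus on chromosome 4 was followed from 100 kb before CXCL8 to 100 kb after CXCL1 (chr4:73640569-73969393), with the TSSs 129 kb apart and both genes on the plus strand. It held 20 regions, 7 with a peak in all 9 libraries, and the neutrophil chemokine gene CXCL6 and the platelet factor gene PF4V1 between the 2 genes had no promoter peak in any library. Most regions lay before CXCL8. The one with the highest mean percentile, at −78.7 kb from the CXCL8 TSS (chr4:73661549-73662208), was at percentiles from 86.0 in shE2F1 replicate 1 to 97.8 in shEZH2 replicate 1, and the 200 bases around its strongest summit held an AP-1 match. Its shEZH2 values, 97.8 and 95.2, were above those of shCtrl, 91.1 and 94.9, by a margin of less than 1 point between the nearest values.

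Nearer to CXCL8, the region at −14.3 kb had a peak in all 9 libraries at percentiles from 52.1 with DMSO to 87.9 with shSUZ12, and the one at −35.6 kb from 40.0 to 73.4. Another, at −12.7 kb, was in all 9 libraries but weak, from 8.80 to 32.5. The regions at −86.7, −77.8 and −71.6 kb each had a peak in 8 libraries and those at −63.5 and −10.8 kb in 7, with percentiles anywhere from 6.52 to 86.8. Regions at −39.3 and −18.5 kb had peaks in 4 and 2 libraries. The region at −32.6 kb, inside the lncRNA gene ENSG00000289530 (chr4:73707780-73708203), was lost with shEZH2. It was at 23.7 and 14.1 with shCtrl and 36.6 and 58.4 with shE2F1, both above the shCtrl values. It was at 12.7 with DMSO and also had a peak with shSUZ12, but none with GSK126.

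Between the 2 genes there was a single region outside promoters, at 76.4 kb from the CXCL8 TSS and −52.4 kb from that of CXCL1 (chr4:73816818-73817126). It had a peak in both shEZH2 libraries, at percentiles 58.3 and 25.5, and in no other library. The summits held 21 and 12 tags, and the call held in lists of the same length and at a −log10 q of at least 5. In whole lists it was the only region gained with shEZH2 near the 10 genes.

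Past CXCL1, the region 16.5 kb after its TSS (chr4:73885619-73886263) was higher in both knockdowns. It was at 52.3 and 38.6 with shCtrl, 83.8 and 89.0 with shEZH2, 79.4 and 63.9 with shE2F1 and 48.7 with GSK126, and it had no peak with shSUZ12 or DMSO. Neither knockdown overlapped with shCtrl there, while the CXCL1 promoter lay below shCtrl with shEZH2. The share of all regions with groups apart was not counted. The summits of this region held 19 and 18 tags with shCtrl, 31 and 27 with shEZH2 and 22 and 24 with shE2F1. The region 48.0 kb after the CXCL1 TSS (chr4:73917112-73917755) was in all 9 libraries, at 94.9 and 92.8 with shCtrl, 98.3 and 52.4 with shEZH2, 72.6 and 90.4 with shE2F1 and 86.8 to 92.6 in the other 3, with shE2F1 below shCtrl and shEZH2 on either side of it. The regions 155 and 204 kb after the CXCL8 TSS had peaks in 5 and 7 libraries, at up to 60.8 and 41.0, and a small second promoter peak at −0.887 kb from the CXCL1 TSS was called in shCtrl replicate 2 and shSUZ12 only, at 5.48 and 2.90.

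**Figure D5:**
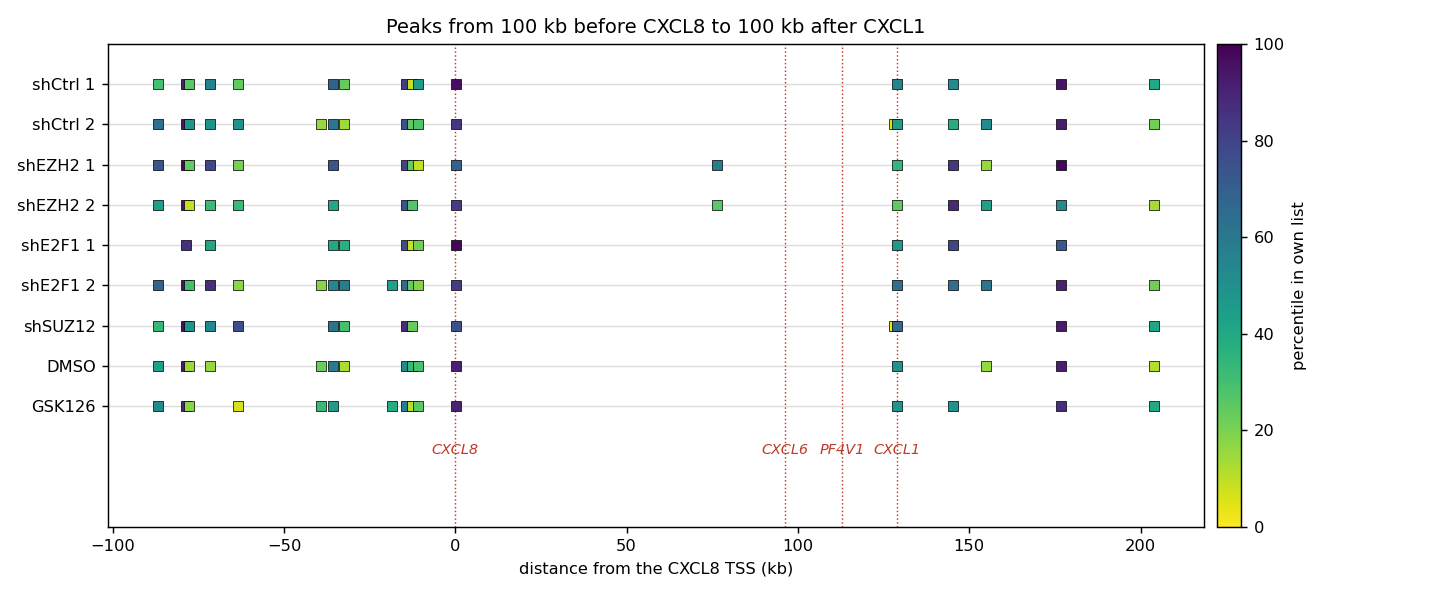
Regions with a peak from 100 kb before CXCL8 to 100 kb after CXCL1 (x axis, kb from the CXCL8 TSS) in each library (y axis), with the colour giving the percentile and dotted lines the TSSs; neighbouring squares can overlap. The squares at 76.4 kb stand only in the 2 shEZH2 libraries, at 58.3 and 25.5, and those at 145 kb, which are 16.5 kb after CXCL1, are darkest with shEZH2, at 83.8 and 89.0.

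At the other genes, gained and lost regions were mostly weak. A region at −6.21 kb from the CXCL3 TSS was lost with shE2F1, from 9.76 and 45.8 with shCtrl. A region 87.5 kb after the IL6 TSS, in an intron of TOMM7, had a peak only in the shCtrl libraries, at 44.2 and 21.5, and so was lost in both comparisons. Near IL1B, a region 15.4 kb after the TSS was gained with shE2F1 at 34.4 and 25.6, with peaks also in shEZH2 replicate 1, DMSO and GSK126, and one at −48.3 kb was lost with shEZH2 from 20.3 and 16.2. A region at −83.8 kb from the CCL2 TSS, inside LINC01989, was lost with shEZH2 from 78.2 and 21.5.

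Near the inhibitor genes, regions 73.0 and 69.1 kb after the NFKBIA TSS were lost with shEZH2 from percentiles of at most 5.19, close to the bottom of the lists. A region at −37.4 kb from the TNFAIP3 TSS, inside the lncRNA gene WAKMAR2, was lost with shEZH2 from 28.0 and 32.4, and a region 59.2 kb after it was gained with shE2F1 at 27.2 and 52.9. With shEZH2, replicate 2 was the library with the lowest background and the fewest peaks. Without it, 10 regions near the 10 genes were lost with shEZH2, and without replicate 1, 15 were, against 9 with both. Leaving out a shEZH2 replicate can only keep or add losses, and the part of depth in them was not tested.

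Among regions with a peak in all 9 libraries outside the gene's own promoter, the one with the highest mean percentile lay at a neighbouring gene for CXCL2, IL6 and IL1B. That of CXCL2 was the MTHFD2L promoter, at −58.7 kb from the TSS, at 96.7 to 99.8, and that of IL6 the TOMM7 promoter, 95.5 kb after the TSS, at 88.6 to 98.8. That of IL1B, 99.6 kb after the TSS over an exon of CKAP2L and an intron of NT5DC4, was at 74.5 to 96.5. Those of CXCL3 at −95.6 kb, NFKBIA at 48.4 kb and TNFAIP3 at −34.9 kb lay outside protein-coding genes, the last inside WAKMAR2, at 72.6 to 91.9, 71.9 to 89.9 and 60.5 to 88.5.

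The rest of the pathway was read from 109 further genes. A promoter peak was found in all 9 libraries at 60 of them, in none at 30 and in some at 19, beside the 60.0% of all genes with a peak in all 9. How many of all genes had a peak in none was not counted. All 5 genes of the NF-κB subunits were among the 60, with RELB and REL highest at mean shCtrl percentiles of 93.3 ± 0.216 and 84.2 ± 5.16 (SD, n = 2) and RELA and NFKB2 lowest at 58.6 ± 13.0 and 59.2 ± 8.59. Of 12 kinase and signalling genes 11 had a peak in all 9 libraries, from TAB1 at 88.8 ± 4.04, a partner of the kinase TAK1, to the receptor-proximal kinase gene IRAK1 at 14.8 ± 2.06. Of 12 further inhibitor and feedback genes 11 did, from the deubiquitinase gene CYLD at 93.0 ± 1.37 to the RNase gene ZC3H12A at 16.5 ± 0.186.

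Few of the other chemokine genes had a promoter peak in every library. Of 23, only PF4 and CXCL16 had one in all 9, beside 60.0% of all protein-coding genes. They were at mean shCtrl percentiles of 48.7 ± 19.3 and 20.1 ± 3.40 (SD, n = 2). No promoter peak was called in any library at 18 of the 23, as was the case for CCL2 and CCL20, and the share of all genes with none was not counted. Of 18 other cytokine and growth factor genes 8 had one in all 9, with IL18 at 78.4 ± 19.6 highest and IL11 at 5.49 ± 4.38 lowest, while TNF, a classic activator of NF-κB, had none. Of 19 receptor genes 10 did, with IL6ST, the shared IL-6 signal transducer, at 89.0 ± 0.187 highest and TNFRSF1B at 12.1 ± 3.90 lowest. Of the receptors for the chemokines described here, CXCR1, CXCR2 and CCR6 had no promoter peak in any library and CCR2 had one in 5, at percentiles from 21.5 to 59.3. Of 20 other target genes 13 had one in all 9, with CD83 and PTGS2 highest at 80.3 ± 11.5 and 79.5 ± 0.735. JUNB and FOSL1 were the lowest of these, at 16.1 ± 1.11 and 17.1 ± 7.79.

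The knockdown comparisons of these genes were spread in both directions. With shEZH2, 13 of 64 testable promoters were higher than in both shCtrl libraries and 15 lower, beside 10.6% and 29.7% of all promoters, and in lists of the same length 21 of 60 were higher and 7 lower, beside 23.9% and 14.4%. With shE2F1, 17 of 64 were higher and 15 lower, beside 19.2% and 17.0%.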

How the data were processed

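ATAC-seq peak lists of 9 libraries were used. The authors aligned reads with Bowtie2, allowing up to 4 placements, shifted them for Tn5 cutting by 4 or 5 bp and called peaks per library. The build is given as GRCh38 or hg38, and the caller is not given in the sources used here. The deposited lists hold a score, the fold enrichment as a ratio to local background, the −log10 of p and of q, and the summit. Depth was recovered from the fold enrichment and −log10 p, which fix a whole number of tags and a Poisson background for 100% of peaks, with a tolerance of 0.002 in −log10 p. No read counts were used.

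The genes and lists were chosen with earlier results of these data known. A promoter spanned 1 kb up- and downstream of the Ensembl canonical TSS of GENCODE v44. Regions were peaks merged over all 9 libraries at an overlap of 1 bp. In the CCL20 and CXCL8 to CXCL1 loci every region with a peak in at least 2 libraries was named, and elsewhere every gained or lost region and the region outside the promoter with the highest mean percentile among those in all 9 libraries. Pathway genes were named by the highest and lowest mean shCtrl percentile of their list. Where the files gave no peak, no value was assigned. No test was run. The alternatives were a promoter window of 500 bp or summits within 1 kb, only peaks with −log10 q from 5 up, equally long lists of top peaks, ranking by −log10 p, merging over the compared libraries, summit windows of 250 bp, a distance of 50 kb, another control and leaving out each replicate. The sequence of 1 region is not reported here. Scripts were tested on simulated data. Python 3.11.15, numpy 2.4.6, pandas 2.3.3, scipy 1.17.1, Biopython 1.88 and matplotlib 3.10.9 were used.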

Additional observations from a re-analysis of the deposited data

How the results depend on the processing

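No paired analysis was possible because the results come from no test, and shared replicate numbers are not stated to mark a shared culture. The count of promoters with a peak in all 9 libraries stayed at 8, except at 7 with the same number of top peaks, where IL1B lost its peak in the shSUZ12 list. The count of promoters apart from shCtrl with shEZH2, 4, fell to 2 with the same number of top peaks (2 higher, 0 lower) and to 2 with ranking by −log10 p (0 higher, 2 lower), and ran from 4 to 7 as each replicate was left out, with 7 without shCtrl replicate 1 and without shEZH2 replicate 2. With shE2F1 the count of 1 became 2 and 0 under the same 2 settings, and 3 to 6 as each replicate was left out, with 6 without shE2F1 replicate 2. The count past 10 points with shSUZ12 or GSK126, 5, became 8 with the same number of top peaks and 3 with ranking by −log10 p, so that 2 higher and 3 lower became 6 higher and 2 lower (CXCL2 and NFKBIA joined with shSUZ12, CXCL2 and CXCL3 with GSK126, and IL1B left) and 1 higher and 2 lower (CXCL8 and IL6 left), and was 4 to 5 without a shCtrl replicate. Without shCtrl replicate 1, CXCL8 was no longer past 10 points with shSUZ12, and without shCtrl replicate 2, IL6 was not and NFKBIA was. With the mean of shCtrl in place of DMSO, TNFAIP3 was no longer past 10 points with GSK126 and IL1B was, upward.

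Gained or lost regions with shEZH2, 10 in all, became 4 within 50 kb, a smaller window, and 15 to 19 as each replicate was left out, with 19 without shEZH2 replicate 1. With shE2F1, 6 in all became 3 with the same number of top peaks, 10 with summit windows of 250 bp and 10 to 21 as each replicate was left out, with 21 without shE2F1 replicate 2. The cause of the other changes was not tested, and the shares over all regions were not counted under these settings. For single promoters with shEZH2 or shE2F1, 8 of 32 differences recomputed with the same number of top peaks or ranking by −log10 p moved by more than the spread between replicates. Leaving out 1 of 2 replicates cannot move a difference that far. Depth limits presence: peaks under 8 or 9 tags were not called, and 2 libraries a group give a coarse error.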
